A study of Mus musculus with 10 samples.

Results

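The miRNAs described here come from 16 neighbouring hairpins at the distal end of the imprinted Dlk1-Dio3 region of mouse chromosome 12, from miR-487b to miR-410 together with miR-3072. Members were chosen by hairpin name alone, both arms included, which gave 32 mature miRNA entries of the 1907 in the deposited count table. The related miR-496b is a separate hairpin and was not included. Small RNA had been sequenced from E14 mouse embryonic stem cells of 129/Ola background, in 5 groups of 2 libraries each. The groups were wild type (WT), Dgcr8 knockout (Dgcr8_KO), Drosha knockout (Drosha_KO), Dicer knockout (Dicer_KO) and the double knockout of Ago1 and Ago2 (Ago12_KO). All cells grew on gelatine with 15% serum and 100 U/mL LIF, the cytokine that keeps stem cells undifferentiated. The targeted genes are not in a table of miRNAs, so the genotypes were not checked here.

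A miRNA hairpin is cut out of its primary transcript by the Microprocessor, in which Drosha is the nuclease and Dgcr8 the RNA-binding partner. Dicer then removes the loop and leaves a duplex of a 5p and a 3p strand, of which an Argonaute protein keeps mainly a single strand. The Dlk1-Dio3 region is imprinted: its noncoding RNAs, Mirg and the miRNA hairpins among them, are expressed from the maternally inherited chromosome, and the region's activity is a known marker of fully reprogrammed pluripotent cells. Several of the members are best known from neurons, such as miR-134 and miR-485, which act on dendritic spines and synapses, and miR-134 has also been tied to the differentiation of embryonic stem cells.

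The 16 hairpins lie on the plus strand of GRCm38, the assembly also called mm10, within chr12:109727333-109747960, a stretch of 20628 bases. GENCODE M21 places the noncoding gene Mirg at chr12:109729764-109749460. The hairpins of miR-487b, miR-539 and miR-544 lie before its annotated start, 4 lie in its exons (miR-134, miR-485, miR-377 and miR-410), 5 lie partly in an exon and 4 in introns. miR-3072 is the last of them, downstream of miR-410. Annotated genes on the opposite strand overlap the hairpins of miR-539 and miR-409, and whether the counting used strand is not given in the sources used here.

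Mature sequences were found for 29 of the 32 members in RefSeq (GRCm38 patch 6). None was found there for miR-485-5p, miR-487b-3p and miR-539-3p. The 5 below carry most of the counts or the clearest differences between groups, with the seed, bases 2 to 8, in capitals.
miR-541-5p: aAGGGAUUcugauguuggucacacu
miR-410-3p: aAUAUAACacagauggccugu
miR-409-3p: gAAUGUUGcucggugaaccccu
miR-134-5p: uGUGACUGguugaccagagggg
miR-668-3p: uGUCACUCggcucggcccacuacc
The 29 sequences had 29 different seeds, so no members could be grouped by a shared seed. There was still repetition among arms, in stretches that mostly began inside the seed and ran past it. The letters GGUUNNCC, a motif picked after reading the members, occurred in 7 of the 29 members, read as written: miR-154-3p and 6 5p arms, that of miR-134 among them. They occurred in 8 of 78 other mature miRNAs of the region and in 1.19% of the 1679 mature sequences searched. The letters UACANGG, picked likewise, occurred in miR-485-3p, miR-154-3p, miR-496a-3p and miR-369-3p, in 4 of 78 others of the region and in 1.01% of all. In these 3p arms the stretch begins inside the seed and runs past it.
miR-369-3p: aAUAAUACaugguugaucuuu
miR-154-3p: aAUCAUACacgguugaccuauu
miR-485-3p: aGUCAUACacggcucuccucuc
miR-496a-3p: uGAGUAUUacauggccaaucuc

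In wild-type cells the members were unevenly expressed. They held 4.34% and 4.42% of all counts in the 2 WT libraries, and 3 of them, miR-541-5p, miR-410-3p and miR-409-3p, made up 92.8% and 92.2% of that. Levels are given in CPM, the count divided by the library's counts over all miRNA entries and multiplied by 1000000. miR-541-5p stood at 23501 and 22982 CPM and ranked 9 among all 1907 entries. miR-410-3p followed at 10596 and 10857 CPM, rank 19, and miR-409-3p at 6167 and 6933 CPM, rank 26. The replicate ranges of these 3 did not overlap, so their order was the same in both libraries.

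miR-134-5p came next at 819 and 870 CPM, and no other member passed that level. miR-369-3p, from a hairpin linked to somatic cell reprogramming, stood at 408 and 439 CPM, and miR-487b-3p at 359 and 423 CPM. The ranges of miR-369-3p and miR-487b-3p overlapped, so these neighbours were not told apart. miR-485-3p (300 and 335 CPM) and miR-369-5p (256 and 296 CPM) followed. miR-377-3p (171 and 187 CPM) and miR-382-5p (166 and 184 CPM) overlapped each other and closed the 10 most abundant. Of the 32 members, 24 had a WT mean of at least 10 CPM and 12 of at least 100 CPM, and all 32 had a count in at least 1 WT library. Abundance did not run along the chromosome: miR-541, miR-409 and miR-410 are close neighbours, yet miR-412 between them reached at most 41.2 CPM on either arm.

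**Figure D1:**
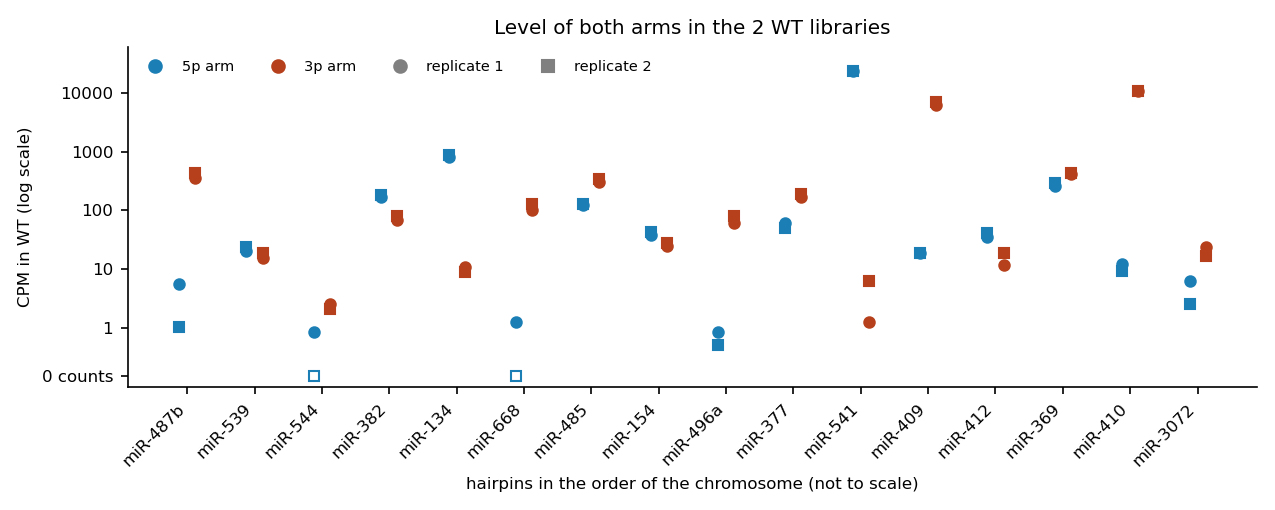
Level of the 5p (blue) and 3p (red) arm of each of the 16 hairpins in the 2 WT libraries, in CPM on a log scale, with hairpins in chromosome order and open symbols for arms with 0 counts. miR-541-5p at 23501 and 22982 CPM, miR-410-3p and miR-409-3p stand above all other arms.

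Depth and composition set what the mutants can show. Library totals were 2357868 and 1943868 counts in WT, 289539 and 408654 in Dgcr8_KO, 349312 and 229407 in Ago12_KO, and only 37476 to 45222 in Drosha_KO and Dicer_KO, where a single count is worth 22.1 to 26.7 CPM. In bulk libraries, fewer cells of a type and less RNA per cell cannot be told apart. The markers used here are themselves miRNAs, made by the pathway that the knockouts target. In the mutants their shares cannot be read as cell type alone. Summed shares also hide that single stem cell entries were called both higher and lower in every mutant, by the test described below. Markers of embryonic stem cells (the miR-290 and miR-302 families) held 18.4% to 19.7% of counts in WT, 15.9% to 16.3% in Dgcr8_KO, 20.4% to 20.96% in Drosha_KO, 3.20% to 3.58% in Dicer_KO and 11.5% to 12.4% in Ago12_KO. Fibroblast markers reached at most 0.677% and neural markers at most 0.341% in any library. Blood markers held 0.136% to 0.177% in WT, 0.473% to 0.478% in Dgcr8_KO, 0.355% to 0.567% in Drosha_KO, 0.0454% to 0.0619% in Dicer_KO and 0.880% to 1.14% in Ago12_KO. Liver, gut and endoderm markers held 0.156% to 0.161% in WT, 0.683% to 1.18% in Ago12_KO and 0.0174% to 0.0509% in the libraries of the other 3 mutants. A set of 9 entries known to overlap tRNA or rRNA fragments held 57.2% and 62.1% of the Dicer_KO counts, against 0.361% to 0.584% in WT, which lowers every CPM in Dicer_KO. The part of these differences in the results below was not tested. Dgcr8_KO and Ago12_KO libraries carry different date-like codes in their labels, the Dicer_KO libraries carry clone-like names, and the WT libraries carry passage-like codes that differ between the 2 replicates, so a batch and a group cannot be told apart. The labels do not say that replicates were separate cultures. P-values then measure only the spread between these libraries, which may be technical.

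Before any comparison, the Drosha_KO libraries have to be set apart. Replicate 1 held 2 member counts, 1 of miR-541-5p and 1 of miR-382-3p, which is 0.00506% of the library (95% Clopper-Pearson interval 0.000613% to 0.0183%). Replicate 2 held 547, which is 1.36% (1.25% to 1.47%), at almost the same depth. The rest of the imprinted region split the same way, at 0.0101% and 9.54%, while the stem cell markers were alike in both. Clopper-Pearson intervals cover counting error only. Results that rest on these libraries are therefore given for each library and with and without them.

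All 4 mutants held a smaller share of counts in the members than WT. The share was 1.39% and 1.41% in Dgcr8_KO, 0.122% and 0.283% in Dicer_KO, and 1.54% and 3.42% in Ago12_KO. No mutant library reached the WT range of 4.34% to 4.42%, but 2 libraries against 2 cannot give an exact two-sided permutation p under 0.333, which each group had. Without the fragment-like entries in the total, the mean Dicer_KO share was 0.515% and that of Dgcr8_KO 1.54%.

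Within the imprinted region, the members held a smaller share beside the rest, the 79 entries of its other hairpins, in both Dgcr8_KO libraries. Members held 22.7% and 23.2% of the region's counts in WT and 6.25% and 6.21% in Dgcr8_KO, where the rest of the region made up 20.8% and 21.3% of all counts, against 14.7% and 14.6% in WT. The larger part of that came from 1 entry, miR-127-3p, the most abundant of the rest, picked after its values were seen. It stood at 81585 and 79577 CPM in WT and 176394 and 181594 CPM in Dgcr8_KO (log2 1.15, edgeR adjusted p = 0.464, not called). The spread in that fit includes the split Drosha_KO libraries, where miR-127-3p stood at 101 and 79889 CPM. It went from 42.8% and 41.8% of the region's counts in WT to 79.4% and 80.1% in Dgcr8_KO. Without it the members held 39.8% and 39.9% of the region in WT and 30.4% and 31.3% in Dgcr8_KO. Of the 46 entries tested from the rest, 35 were called lower in Dgcr8_KO. In Dicer_KO the members kept 21.4% and 23.9% of the region. In Ago12_KO they held 19.1% and 32.7%, values on both sides of WT, and in Drosha_KO replicate 2 they held 12.5%. This ratio needs no library size. The exact two-sided permutation p was 0.333 for Dgcr8_KO and 1.000 for each of the others.

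**Figure D2:**
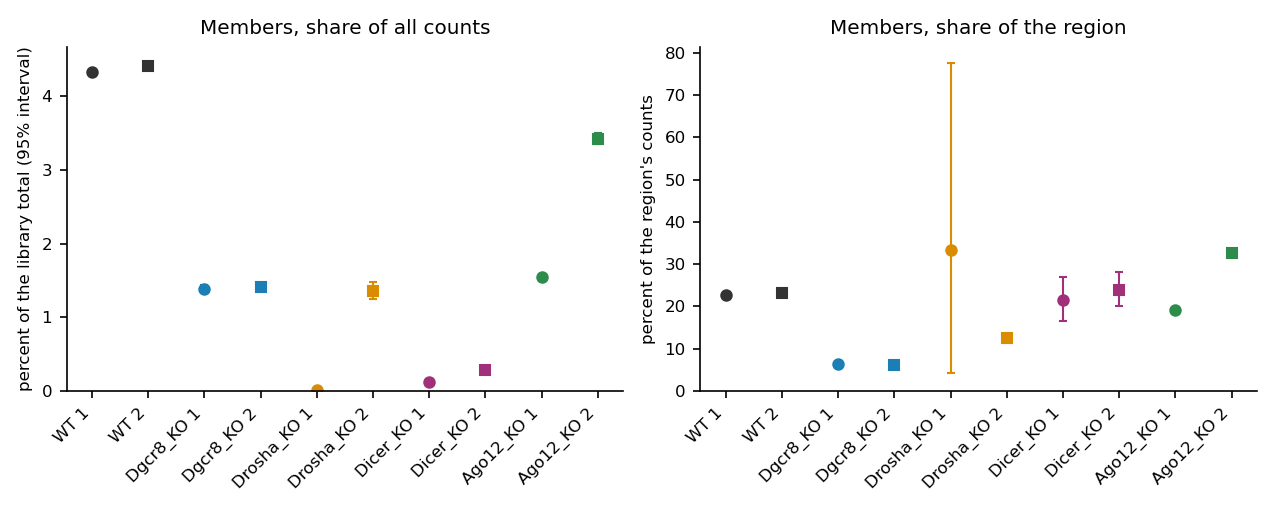
Share of each library's counts held by the 32 members (left) and share of the imprinted region's counts held by them (right), in percent per library with 95% Clopper-Pearson intervals. In Dgcr8_KO both shares lie below WT (1.39% and 1.41% on the left, 6.25% and 6.21% on the right), while Dicer_KO at 21.4% and 23.9% on the right spans the WT values; the wide interval is Drosha_KO replicate 1, with 6 counts in the region.

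For tests per entry, 481 of 1907 entries passed the filter on low counts, among them 17 of the 32 members. The other 15 did not pass it. An entry that passed only through a group where it was high had to differ, so a count over the 17 is a description of those entries. The filter asked for at least 38.5 CPM in 2 libraries. miR-134-3p met it only with the Ago12_KO libraries, where it is high, and miR-382-3p and miR-496a-3p only with the WT libraries. An edgeR quasi-likelihood test with Benjamini-Hochberg adjustment over the 481 entries made a call at an adjusted p under 0.05.

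In Dgcr8_KO, 12 of the 17 members were lower and 1 was higher, where 41.0% of all entries tested were called lower and 32.4% higher. The median log2 fold change was -2.08 over the 17 members and -0.41 over all entries. The 46 entries from the rest of the region, with 35 lower and 3 higher, had a median of -3.38. miR-134-5p was the extreme. It had 1930 and 1692 counts in WT and 0 in both Dgcr8_KO libraries, at least 197-fold lower (edgeR adjusted p = 1.76e-06). Its partner miR-134-3p also had 0 counts there, at least 2.30-fold lower (edgeR adjusted p = 0.0281), a call lost without WT replicate 1 or either Dgcr8_KO library.

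miR-409-3p fell from 6167 and 6933 CPM to 446 and 421 CPM, a log2 fold change of -3.92 (SE 0.55, edgeR adjusted p = 8.33e-05) or 15.1-fold. The 2 groups were far apart relative to their spread. miR-487b-3p fell from 359 and 423 CPM to 24.2 and 41.6 CPM, 11.9-fold (log2 -3.53, SE 0.48, edgeR adjusted p = 0.000108). miR-369-3p stood at 138.2 and 135 CPM and miR-369-5p at 93.3 and 83.2 CPM, so both arms of that hairpin fell alike, with log2 fold changes of -1.63 and -1.65. miR-377-3p stood at 55.3 and 75.9 CPM, and miR-382-5p at 38.0 and 44.0 CPM, both called lower. Without Dgcr8_KO replicate 1 fewer members were called lower. The median log2 fold change was then -1.78 over the members and -0.51 over all entries.

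The 2 most abundant members differed in how much of their level remained. miR-410-3p stood at 5768 and 5868 CPM in Dgcr8_KO, 53.8% and 54.7% of its WT mean, and miR-541-5p at 6669 and 6749 CPM, 28.7% and 29.0%. In each case the groups did not overlap and the replicates lay close together. Neither passed the test with all 5 groups in the fit (edgeR adjusted p = 0.496 and 0.141), whose spread for these entries includes the split Drosha_KO libraries. With the Drosha_KO group left out of the fit, both were called lower, as was miR-485-3p (141.6 and 108 CPM against 300 and 335), for 15 lower and 1 higher, where 41.8% and 34.3% of all entries were called. miR-410-3p made up 41.5% and 41.7% of the members' counts in Dgcr8_KO, against 24.4% and 24.6% in WT.

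miR-668-3p went the other way. It stood at 101 and 126 CPM in WT and at 408 and 379.3 CPM in Dgcr8_KO, 3.47-fold higher (log2 1.79, SE 0.51, edgeR adjusted p = 0.00842). Every Dgcr8_KO library lay above both WT libraries. The call was lost without either WT library or without Dgcr8_KO replicate 1, and without any scaling by library total, which leaves the lower Dgcr8_KO totals in the comparison, the log2 fold change was -0.82. Drosha_KO replicate 2 had miR-668-3p at 273 CPM, also above both WT libraries, from 11 counts. Its RefSeq hairpin is shown with both arms in capitals; at chr12:109734732-109734797 it is 66 bases long, as short as that of miR-154 and shorter than the other 14, and its 3p arm ends at the last annotated base.
mir-668: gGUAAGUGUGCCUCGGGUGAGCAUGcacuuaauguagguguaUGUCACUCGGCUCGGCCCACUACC

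**Figure D3:**
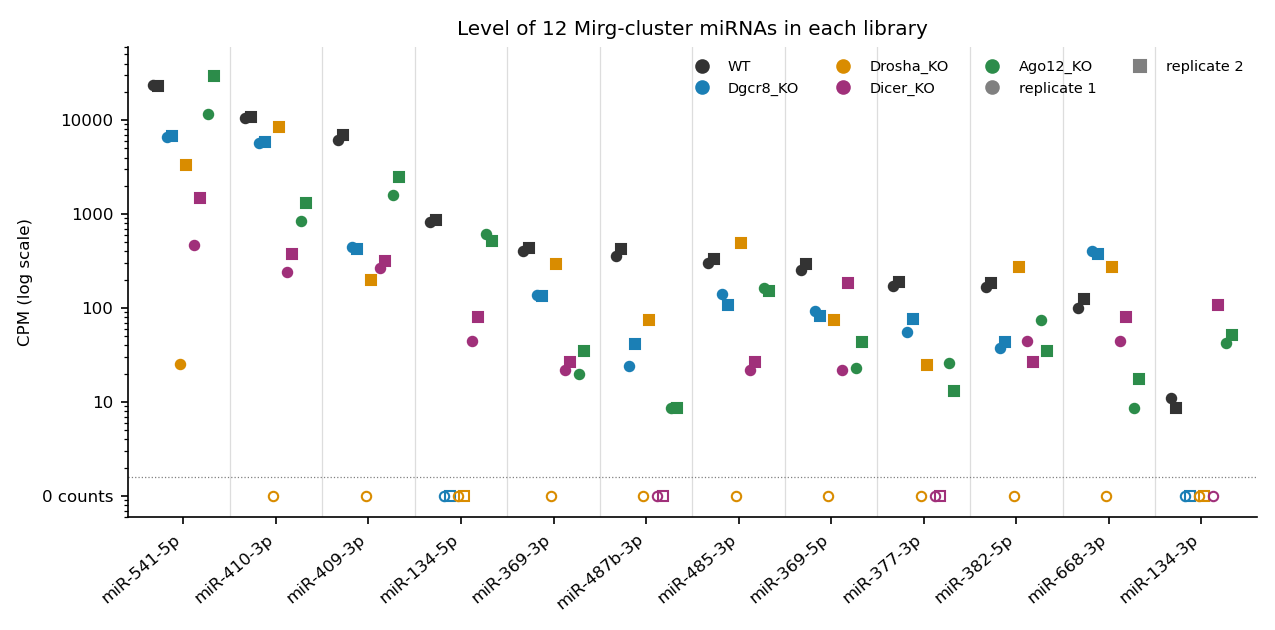
Level of the 12 named members in each of the 10 libraries, in CPM on a log scale, coloured by group, with circles for replicate 1 and squares for replicate 2; open symbols at the bottom are libraries with 0 counts. miR-134-5p is at 0 counts in all Dgcr8_KO and Drosha_KO libraries, and miR-668-3p is the member whose Dgcr8_KO values of 408 and 379.3 CPM lie above WT.

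In Drosha_KO, 10 of 17 members were lower and 0 higher, where 31.6% and 26.2% of all entries were called. At an unadjusted p under 0.05 edgeR also gave 0 higher, as did DESeq2. Without replicate 1, 5 members were lower (23.5% of all entries), and without replicate 2, 12 (28.7%). The count mixes libraries that differ, and replicate 2 is described alone. It had 13 of the 32 members. There miR-410-3p stood at 8361 CPM, 78.0% of the WT mean, miR-541-5p at 3300 CPM, 14.2%, and miR-409-3p at 198 CPM, 3.03%. miR-485-3p (496 CPM), miR-382-5p (273 CPM), miR-668-3p (273 CPM) and miR-382-3p (149 CPM) lay above both WT libraries, from 20, 11, 11 and 6 counts. miR-134-5p, with a WT mean of 844 CPM, had 0 counts in both Drosha_KO libraries, at least 22.5-fold lower (edgeR adjusted p = 3.10e-05). From replicate 2 alone the bound is at least 11.3-fold, and without replicate 1 the edgeR adjusted p was 3.72e-05.

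Replicate 2 of Drosha_KO and the Dgcr8_KO libraries can be set side by side, since they lack partners of the same complex, although both percentages use the same WT mean. miR-410-3p kept the highest share of its WT level among the 3 most abundant members in each (78.0%, and 53.8% and 54.7%), and miR-409-3p the lowest (3.03%, and 6.80% and 6.43%). miR-541-5p lay between. miR-134-5p was at 0 in all 4 libraries. Drosha_KO replicate 1, of almost the same depth, had 0 counts of miR-410-3p and miR-409-3p and 1 of miR-541-5p. It did not repeat this order, which in Drosha_KO rests on replicate 2 alone.

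In Dicer_KO, 11 of 17 members were lower and 0 higher, where 42.6% and 13.3% of all entries were called. At an unadjusted p under 0.05 edgeR gave 0 higher, as did DESeq2 with column totals, and DESeq2 with its own size factors gave 1. The lower calls depended on scaling. With size factors in edgeR there were 5 lower and 1 higher, where 106 and 84 of all 481 entries were called. After removing fragment-like entries from the totals there were 6 and 1, where 117 and 84 entries were called. DESeq2 with its own size factors gave 4 and 1, where it called 102 and 103 entries. The median log2 fold change with all libraries was -4.12 over the members and -2.78 over all entries. With undetected entries at their bound these medians were -2.26 and -0.81. Without Dicer_KO replicate 1 fewer members were called lower, and the medians were -3.98 and -3.27. In these libraries 14 of the 32 members had a count.

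miR-541-5p had 21 and 55 counts in Dicer_KO, 464 and 1468 CPM (log2 -4.60, SE 1.20, edgeR adjusted p = 0.00701). miR-410-3p had 11 and 14 counts, 243 and 374 CPM, and miR-409-3p 12 and 12 counts, 265 and 320 CPM, 34.8-fold and 22.4-fold below WT. With miR-541-5p 24.1-fold lower, the 3 leading members made up 80.0% and 76.4% of the member counts. miR-377-3p and miR-487b-3p had 0 counts in both libraries, at least 4.94-fold and at least 10.8-fold lower. With fragment-like entries left out of the totals these bounds were at least 2.01-fold and at least 4.39-fold. miR-541-5p, miR-410-3p and miR-409-3p were then 9.42-fold, 13.9-fold and 8.98-fold lower, and all 5 were still called. miR-410-3p and miR-541-5p lay near the threshold there (edgeR adjusted p = 0.0498 and 0.0451). Both calls were lost in DESeq2 with its own size factors, and that of miR-410-3p also with size factors in edgeR. miR-134-5p, at 0 counts in the Microprocessor mutants, was seen here with 2 and 3 counts, 44.2 and 80.1 CPM.

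In Ago12_KO, 10 of 17 members were lower and 1 higher, where 25.8% and 28.7% of all entries were called. The median log2 fold change was -1.57 over the members and -0.016 over all entries, and -1.85 over the 46 entries of the rest of the region, of which 29 were lower and 3 higher. Without WT replicate 1, WT replicate 2 or Ago12_KO replicate 2 fewer members were called lower. The median over the members was then -1.70, -1.36 and -1.23, against 0.077, -0.066 and -0.056 over all entries. miR-487b-3p fell most, from 359 and 423 CPM to 8.59 and 8.72 CPM, 45.2-fold (log2 -5.46, SE 0.61, edgeR adjusted p = 5.95e-05). Its Ago12_KO values were only 3 and 2 counts, so the size of that fold is imprecise. miR-369-3p fell to 20.04 and 34.9 CPM, miR-369-5p to 22.9 and 43.6 CPM, and miR-377-3p to 25.8 and 13.1 CPM. These calls held in all 23 alternatives run. So did that of miR-668-3p at 8.59 and 17.4 CPM, from 3 and 4 counts (8.72-fold lower, edgeR adjusted p = 0.00399).

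No change could be shown for the most abundant member. miR-541-5p stood at 11666 and 29228 CPM in Ago12_KO, values on both sides of WT (log2 -0.19, SE 1.01, edgeR adjusted p = 0.886). The replicates lay far apart, and the test had little precision. miR-410-3p stood at 853 and 1316 CPM, 9.89-fold below WT (edgeR adjusted p = 0.0420, lost in 10 of 23 alternatives), and miR-409-3p at 1586 and 2463 CPM, 3.24-fold below (edgeR adjusted p = 0.0130, lost without either WT library or Ago12_KO replicate 1). miR-541-5p made up 75.7% and 85.4% of the member counts, against 54.2% and 52.0% in WT. miR-134-5p kept 615 and 519 CPM, below both WT libraries but not called (edgeR adjusted p = 0.118).

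The single member called higher was miR-134-3p, the rarer strand of its hairpin. It rose from 11.03 and 8.75 CPM to 42.9 and 52.3 CPM, 4.82-fold (log2 2.22, SE 0.63, edgeR adjusted p = 0.0141), from 15 and 12 counts. Because it entered the tested entries only through Ago12_KO, that p was favoured by the filter. With no filter, over 1262 entries, the edgeR adjusted p was 0.000358. All Ago12_KO values lay above WT, but the call was lost with TMM factors and without WT replicate 1, WT replicate 2 or Ago12_KO replicate 2, and the sign turned without scaling.

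**Figure D4:**
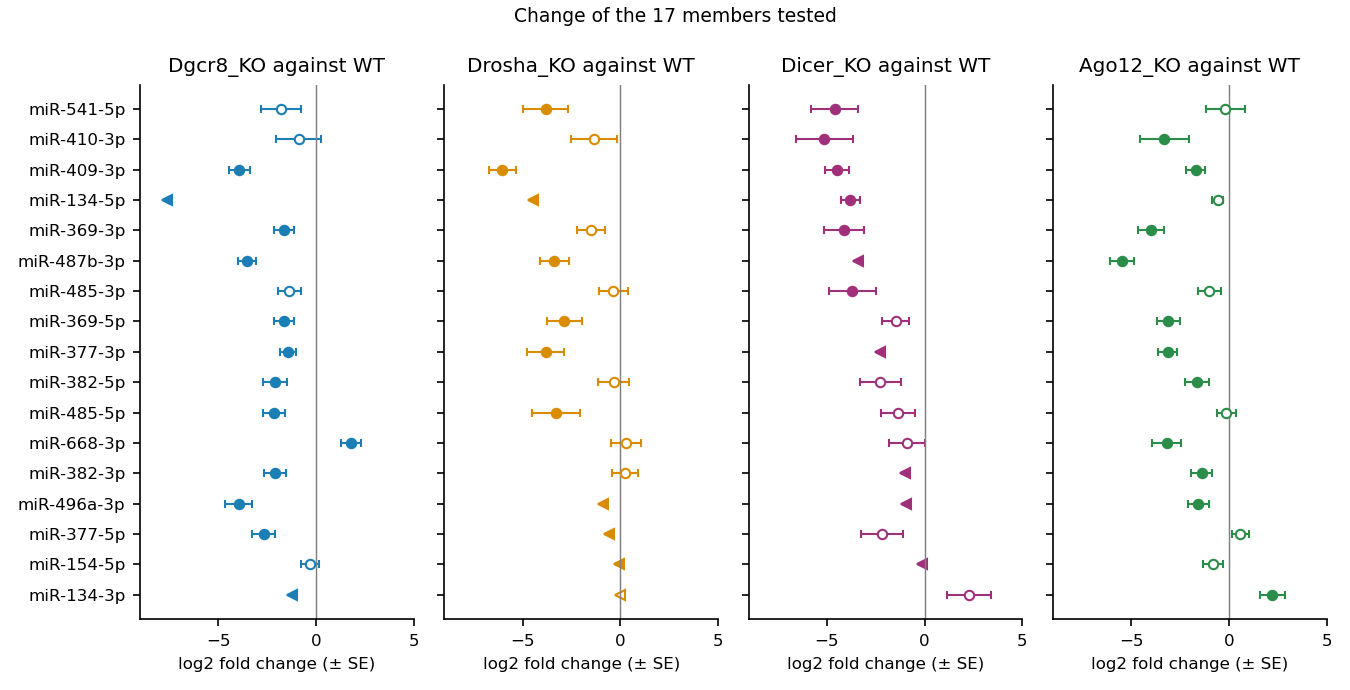
Log2 fold change against WT of the 17 members tested, ordered by WT level, with the standard error; filled symbols are called at an adjusted p under 0.05, open ones are not, and triangles are bounds (3 counts over a group at 0). In Dgcr8_KO miR-668-3p alone is filled to the right of 0, in Ago12_KO miR-134-3p alone.

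Ago12_KO and Dgcr8_KO were also compared directly. Of the 17 members, 4 were lower in Ago12_KO and 6 higher, where 31.8% and 45.7% of all entries were called. Without Dgcr8_KO replicate 2 or Ago12_KO replicate 1 fewer were lower. The median log2 fold change over the members was then 0.57 and 0.30, against 0.81 and 0.80 over all entries. miR-134-5p was at least 132-fold higher in Ago12_KO (edgeR adjusted p = 2.38e-06) and miR-134-3p at least 11.1-fold higher (edgeR adjusted p = 0.00202, favoured by the filter that it passed through Ago12_KO, and 8.90e-07 with no filter). miR-409-3p was 4.67-fold higher (edgeR adjusted p = 0.00254). miR-377-5p was 10.1-fold higher, at 85.9 and 82.8 CPM against 6.91 and 9.79. miR-668-3p was 30.2-fold lower (log2 -4.98, SE 0.74, edgeR adjusted p = 0.000171), miR-369-3p 4.97-fold lower, a call lost without Ago12_KO replicate 1, and miR-487b-3p 3.80-fold lower (edgeR adjusted p = 0.0377, lost in 6 of 22 alternatives). miR-134-5p and miR-668-3p, neighbours on the chromosome, thus differed between these mutants in opposite directions. Ago12_KO had only 3 and 4 counts of miR-668-3p and 3 and 2 of miR-487b-3p.

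The balance of the 2 arms of a hairpin needs no library size. A limma test of the log2 ratio of 5p to 3p counts took hairpins with at least 20 counts in each WT, Dgcr8_KO and Ago12_KO library, which left 115 of 747, among them 4 of the 16. In Dgcr8_KO 0 of the 4 were called (1 at an unadjusted p under 0.05), where 2.61% of the 115 were. miR-410 was nearest, with a shift toward 5p of 1.41 (SE 0.29, limma adjusted p = 0.0533).

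In Ago12_KO 1 of the 4 was called, where 60.9% of the 115 hairpins tested were, so most of the hairpins that passed the count minimum were called. miR-410 moved toward its 5p arm by 4.71 on the log2 scale (SE 0.29, limma adjusted p = 0.000939). Its 5p arm made up 0.116% and 0.0852% of both arms in WT, and 2.61% and 2.27% in Ago12_KO. miR-410-5p stood at 22.9 and 30.5 CPM, from 8 and 7 counts, against 12.3 and 9.26 CPM in WT, while miR-410-3p was 9.89-fold lower. miR-409, miR-485 and miR-541 shifted by 1.08, 0.88 and -0.32 without a call.

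A fit with the Ago12_KO and WT libraries alone, added after seeing that Dgcr8_KO removed them, brought in miR-377 and miR-134. It called 62.3% of 154 hairpins and 4 of 6 members. The 5p arm of miR-377 rose from 26.3% and 21.4% of both arms to 76.9% and 86.4% (shift 3.76, limma adjusted p = 0.00506), so the major arm changed from 3p to 5p. In levels, miR-377-5p stood at 61.1 and 50.9 CPM in WT and 85.9 and 82.8 CPM in Ago12_KO, a difference not called (edgeR adjusted p = 0.247), while miR-377-3p fell 9.22-fold. The 5p arm of miR-134 went from 98.7% and 99.01% to 93.5% and 90.8% (shift -2.86, limma adjusted p = 0.00507). miR-409 was called as well (limma adjusted p = 0.0236) and miR-485 was not (0.0614). In all 6 hairpins the shift was toward the arm that was minor in WT, as in 80.5% of the 154 hairpins. Of the 154, 53.2% were called in that direction. WT libraries define the minor arm and enter the shift, so this is a description. For miR-541 the shift of -0.32 rested on 1 and 0 counts of its 3p arm in Ago12_KO and on the pseudocount. Its 5p share was 99.99% and 99.97% in WT and 99.98% and 100% in Ago12_KO, so no direction can be read from it. The 3 hairpins with a clear shift are shown with their mature arms in capitals, 5p on the left.
mir-134: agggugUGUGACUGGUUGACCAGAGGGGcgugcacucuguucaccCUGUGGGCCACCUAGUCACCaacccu
mir-377: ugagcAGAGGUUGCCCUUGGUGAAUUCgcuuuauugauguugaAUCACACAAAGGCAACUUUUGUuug
mir-410: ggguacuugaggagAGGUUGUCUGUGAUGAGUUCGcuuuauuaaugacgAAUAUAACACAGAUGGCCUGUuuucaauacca
They lie at chr12:109734139-109734209, chr12:109740510-109740577 and chr12:109743715-109743795, each in an exon of Mirg.

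**Figure D5:**
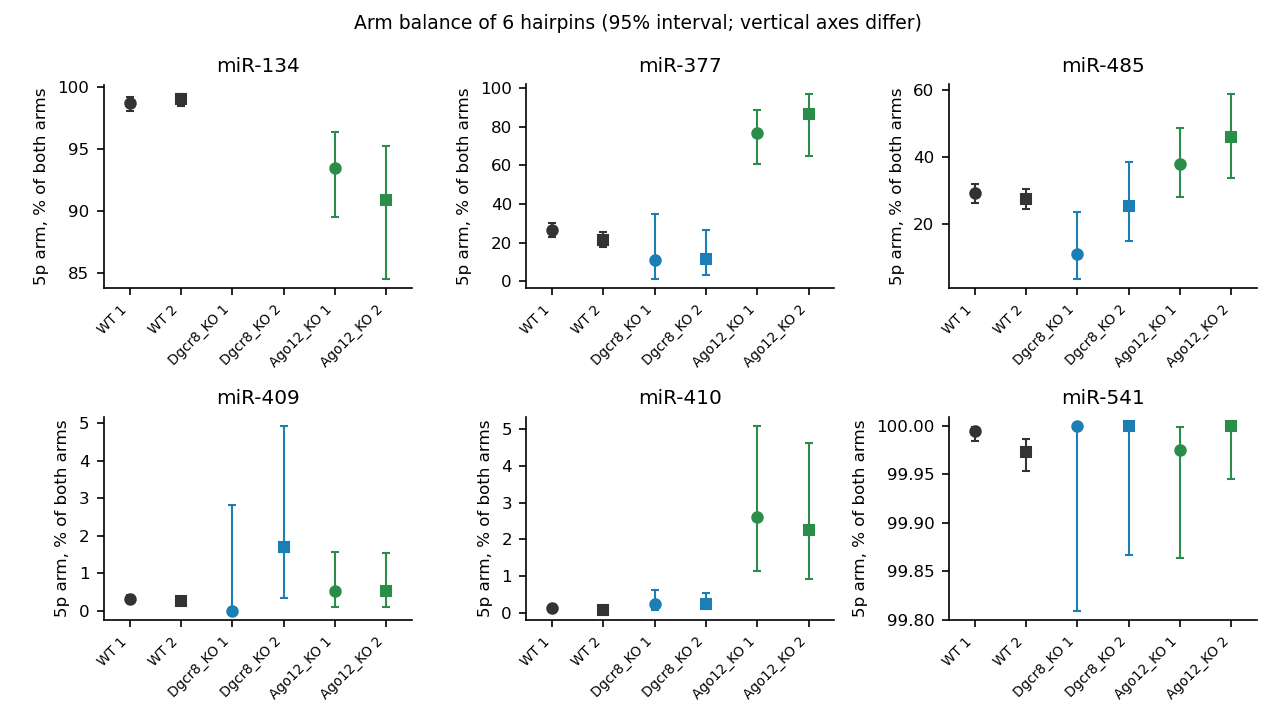
Share of the 5p arm among the counts of both arms of 6 hairpins, in percent per library with 95% Clopper-Pearson intervals, for WT, Dgcr8_KO and Ago12_KO; vertical axes differ, and libraries with 0 counts of both arms have no point. miR-377 goes from 26.3% and 21.4% in WT to 76.9% and 86.4% in Ago12_KO, and miR-410 from 0.116% and 0.0852% to 2.61% and 2.27%.

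The 15 members not tested reached at most 41.2 CPM in a WT library. In Dgcr8_KO 10 of the 32 members had no count in either library, in Ago12_KO 6, in Dicer_KO 18 and in Drosha_KO 19. Both arms of miR-539, at 15.3 to 23.7 CPM in WT, had 0 counts in Ago12_KO, Drosha_KO and Dicer_KO and 1 count in Dgcr8_KO. In Drosha_KO and Dicer_KO a single count is worth 22.1 to 26.7 CPM, so 0 counts cannot show a loss there. Both arms of miR-544 were seen in WT alone, with 8 and 4 counts per library, too few to show a loss in the shallower libraries. miR-154-5p, tested, stood at 20.7 and 41.6 CPM in Dgcr8_KO and 22.9 and 21.8 CPM in Ago12_KO, against 37.7 and 42.2 CPM in WT, and was called in neither.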

How the data were processed

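The authors deposited raw read counts per mature miRNA entry for the 10 libraries. Per the labels' protocols, Trizol RNA went into TruSeq small RNA libraries. Bowtie and mm10 are named in the submitters' processing notes. The sources used here do not give versions, the counting tool, strand or how reads with several matches were counted. CPM was computed here from column totals, which cover miRNA entries only.

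Counts were tested with edgeR 4.0.16 in R 4.3.3 (all 5 groups in 1 fit, 5 residual degrees of freedom, filterByExpr with a minimum count of 10 and total of 15, no TMM factors, since these assume that most entries do not change). Arm ratios with a pseudocount of 0.5 were tested with limma 3.58.1. Intervals and permutation tests came from scipy 1.17.1. Tests were tried on simulated data. The bound for a group at 0 is 3 counts over the group. No column of another series was in the table.

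The members and lists were chosen with earlier results of these data known. Named with all values are the 10 members highest in WT, those called higher in a comparison with WT, and those with at least 3 counts in both libraries of Drosha_KO or Dicer_KO. Printed hairpins, motifs and other members given values were picked after their values were seen. Alternatives were other scalings, filters, DESeq2 1.42.0, other sets of samples, the replicate number as a block and leaving out each library. That alternatives keep the 481 entries was decided after a first look at refiltered counts, which were added. The region without miR-127-3p and the bounds from other totals or 1 library were also added after seeing the data. Deviations of same-numbered replicates correlated at -0.065 to 0.14 between groups, so numbers do not pair them.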

Additional observations from a re-analysis of the deposited data

Results flagged for a closer look

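The direct test of Ago12_KO against Dgcr8_KO, each with 2 libraries, called 31.8% of all entries lower and 45.7% higher. By that test the changes against WT of 10 of the 17 members differed between these mutants. Only 2 of them, miR-134-3p and miR-668-3p, were called against WT in both mutants and in opposite directions. Of these calls, both of miR-134-3p and that of miR-668-3p in Dgcr8_KO were lost in some alternatives. The higher call of miR-134-3p in Ago12_KO was also favoured by the filter. miR-134-3p had 0 counts in Dgcr8_KO and 42.9 and 52.3 CPM in Ago12_KO, around WT values of 11.03 and 8.75 CPM. The direct test gave a fitted log2 fold change of 7.76 (edgeR adjusted p = 0.00202), which is no bound because Dgcr8_KO is at 0. miR-134-3p passed the filter on low counts only through Ago12_KO, so that p was favoured by the filter (8.90e-07 with no filter). miR-668-3p stood at 408 and 379.3 CPM in Dgcr8_KO, above WT at 101 and 126 CPM. In Ago12_KO it stood at 8.59 and 17.4 CPM, from 3 and 4 counts. Its direct log2 fold change was -4.98 (edgeR adjusted p = 0.000171), a call that held in all 23 alternatives run. miR-377-5p was called lower in Dgcr8_KO (log2 -2.68) and had a log2 fold change of 0.59, not called, in Ago12_KO, with a direct difference of 3.27 (edgeR adjusted p = 0.000722). The direct differences of the other 7 were 11.35 for miR-134-5p, at 0 counts in Dgcr8_KO and so no bound, 2.22 for miR-409-3p, 2.02 for miR-485-5p, 2.38 for miR-496a-3p, -1.69 for miR-377-3p, -1.94 for miR-487b-3p and -2.36 for miR-369-3p.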

How the results depend on the processing

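Over 23 alternatives at most, single members kept their side of the threshold in 1723 values and lost or gained a call in 264. In 7 the sign reversed with a call in at least 1 of the fits. Values whose sign changed with no call in either fit are among the 1723. Reversals came without scaling (miR-668-3p in Dgcr8_KO at -0.82, miR-382-3p and miR-668-3p in Drosha_KO at -5.44 and -5.42, miR-134-3p in Dicer_KO at -3.35, miR-134-3p and miR-377-5p in Ago12_KO at -0.67 and -2.30) and for miR-668-3p in Drosha_KO, which ranged from -9.17 without replicate 2 to 1.27 without replicate 1. Members called lower without scaling were 17 in Drosha_KO, 17 in Dicer_KO and 16 in Ago12_KO, where 399, 429 and 336 of all 481 entries were. Without scaling 0 members were called higher in Dgcr8_KO and Ago12_KO, where 51 and 16 of all entries were. TMM factors left 0 higher in Ago12_KO, where 109 of all entries were. In Dicer_KO, size factors in edgeR gave 5 lower and 1 higher, where 106 and 84 of the 481 entries were called. Totals without fragment-like entries gave 6 and 1, where 117 and 84 entries were called. DESeq2 with its own size factors gave 4 and 1, where it called 102 and 103. The median log2 fold change of all entries moved from -0.87 to -1.47 with TMM in Drosha_KO, from -2.78 to -1.67 with size factors in Dicer_KO, and from -0.016 to -0.66 with TMM in Ago12_KO. In Dgcr8_KO, 19 of 32 members tested were lower with no filter, where 247 of 1262 entries were. With the groups compared alone 15 of 17 were, where 221 of 481 entries were. With entries also filtered again (added after seeing the data) 21 of 25 were, where 271 of 568 entries were. The cause of these changes was not tested.

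Leaving out 1 library at a time gave 5 to 15 members lower and 0 to 1 higher in Dgcr8_KO, 5 to 12 lower in Drosha_KO, 4 to 13 lower and 0 to 1 higher in Dicer_KO, 5 to 11 lower and 0 to 1 higher in Ago12_KO, and 2 to 6 lower in Ago12_KO against Dgcr8_KO. A lone library is then assumed to vary like the other groups. For arms, a pseudocount of 1 or a minimum of 50 counts gave calls in Dgcr8_KO that the main fit did not make. The share of all hairpins called is not given for these settings. With the groups compared alone, Ago12_KO had 4 calls, where 62.3% of 154 hairpins were called. Shares moved to 1.54% in Dgcr8_KO and 0.515% in Dicer_KO without fragment-like entries. Without miR-127-3p, the members' mean share of the imprinted region was 39.8% in WT, 30.8% in Dgcr8_KO, 73.3% in Drosha_KO (where replicate 1 had 2 counts left), 42.8% in Dicer_KO and 38.4% in Ago12_KO. With the replicate block, members lower against WT were 12 for Dgcr8_KO, 9 for Drosha_KO, 10 for Dicer_KO and 8 for Ago12_KO, those higher were 1, 0, 0 and 1, and Ago12_KO against Dgcr8_KO had 5 and 5. The totals of Drosha_KO and Dicer_KO limit what can be seen there, with 3 counts worth 66.3 to 80.1 CPM.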

Other observations

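Some members share their seed with entries from elsewhere in the genome, whose levels are given as values. miR-377-5p shares its seed with miR-672-5p, which stood at 183 and 228 CPM in WT and 1039 and 889 CPM in Ago12_KO, above miR-377-5p itself in every library. miR-412-3p shares its seed with miR-1983, an entry of the set known to overlap tRNA or rRNA fragments. Whether counts of miR-1983 come from such fragments was not tested. It stood at 515 and 629 CPM in WT, 12209 and 11579 CPM in Dgcr8_KO and 31.5 and 26.2 CPM in Ago12_KO. In Drosha_KO it stood at 18931 and 24636.5 CPM, and in Dicer_KO at 88.5 and 133 CPM. miR-410-3p shares its seed with miR-344d-3p, which had 0 counts in WT, 12 and 15 in Dgcr8_KO and 9 and 12 in Drosha_KO. These entries were looked up because of their seeds, and no test was made of them.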
